A study of Mus musculus with 6 samples.

Results

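Genes of the proteasome were examined in muscle stem cells (MuSCs) sorted from injured mouse muscle. Members were taken by symbol: every gene named Psm followed by a letter from a to g and a number, without pseudogenes. This rule found 50 of the 49671 genes in the files, all 50 annotated as protein coding. They comprise 3 immunoproteasome catalytic subunits (Psmb8, Psmb9, and Psmb10) and 47 others, one of which, Psmc3ip, encodes a recombination cofactor and is a match by symbol only.

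RNA of 6 libraries was sequenced, 3 from RvD1-treated and 3 from vehicle-treated mice, with 1 mouse per library. All animals were female C57BL/6 mice aged 4 to 6 months whose tibialis anterior (TA) muscles had been injected with 50 μL of 1.2% BaCl2, a salt that kills myofibers. The RvD1 group received daily IP injections of 100 ng of resolvin D1, a lipid mediator made from docosahexaenoic acid that promotes the resolution of inflammation. The vehicle group received the 0.1% ethanol carrier alone, which the RvD1 solution also contained, and both groups were collected at day 3 after injury. MuSCs were sorted as CXCR4+ β1-integrin+ cells that lacked CD45, Ter119, CD11b, and Sca-1. The labels also list CD31, an endothelial marker, among the antigens selected against, whereas the study's methods do not. No uninjured or untreated MuSCs were analysed here, so the levels given refer to injured muscle only.

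The proteasome degrades proteins that carry a ubiquitin chain. Its 20S core is a barrel whose outer rings are built from alpha subunits and whose inner rings are built from beta subunits, and a 19S cap recognizes, unfolds, and feeds in the substrate. Catalysis is carried out by Psmb5, Psmb6, and Psmb7. In cells exposed to interferon γ, and constitutively in many immune cells, these are replaced in newly built particles by Psmb8, Psmb9, and Psmb10, respectively, and the resulting immunoproteasome favors peptides that are presented by MHC class I. In muscle, the ubiquitin-proteasome system is best known for the breakdown of myofibrillar protein during atrophy, and proteasome activity is also required by MuSCs.

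Promoter sequences of the catalytic subunits are shown so that the subunits induced by interferon can be compared with those expressed in nearly every cell. They run from 250 bases before to 50 bases after the start of the gene in RefSeq on GRCm38.p6, 5′ to 3′ on the strand of the gene. Windows were found for 42 of the 50 members, and Psmb7 was not among them. Psmb8 lies on the plus strand (chr17:34197945-34198244), and Psmb9 lies on the minus strand (chr17:34187281-34187580) of the same MHC region. Psmb10 is on the minus strand (chr8:105938343-105938642). The constitutive counterparts are Psmb5 on the minus strand (chr14:54617946-54618245) and Psmb6 on the plus strand (chr11:70525107-70525406). Capitals mark the match to the gamma interferon activated site in Psmb8 and to the antioxidant response element in Psmb5 and Psmb6.
Psmb8: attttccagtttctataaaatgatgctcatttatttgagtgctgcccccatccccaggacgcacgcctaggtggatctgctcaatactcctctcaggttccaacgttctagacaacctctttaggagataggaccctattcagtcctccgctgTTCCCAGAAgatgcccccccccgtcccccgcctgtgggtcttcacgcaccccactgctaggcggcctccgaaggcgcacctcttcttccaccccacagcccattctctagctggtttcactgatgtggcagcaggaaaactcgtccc
Psmb9: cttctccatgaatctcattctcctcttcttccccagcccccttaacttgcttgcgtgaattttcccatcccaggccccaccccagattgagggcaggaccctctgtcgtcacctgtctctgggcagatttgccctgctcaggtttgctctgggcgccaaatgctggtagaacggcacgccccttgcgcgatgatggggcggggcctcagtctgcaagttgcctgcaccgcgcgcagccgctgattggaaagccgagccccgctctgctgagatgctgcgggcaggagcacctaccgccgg
Psmb10: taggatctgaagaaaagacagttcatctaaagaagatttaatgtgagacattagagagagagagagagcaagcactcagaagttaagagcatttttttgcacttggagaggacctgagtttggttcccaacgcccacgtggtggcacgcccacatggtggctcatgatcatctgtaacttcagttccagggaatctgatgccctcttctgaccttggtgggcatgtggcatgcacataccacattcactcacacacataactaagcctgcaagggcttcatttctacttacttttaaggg
Psmb5: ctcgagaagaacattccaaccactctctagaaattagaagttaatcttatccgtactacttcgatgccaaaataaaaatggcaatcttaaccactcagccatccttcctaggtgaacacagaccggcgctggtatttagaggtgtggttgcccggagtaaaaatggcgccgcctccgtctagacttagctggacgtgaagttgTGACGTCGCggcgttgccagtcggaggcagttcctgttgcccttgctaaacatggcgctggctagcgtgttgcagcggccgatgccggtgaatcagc
Psmb6: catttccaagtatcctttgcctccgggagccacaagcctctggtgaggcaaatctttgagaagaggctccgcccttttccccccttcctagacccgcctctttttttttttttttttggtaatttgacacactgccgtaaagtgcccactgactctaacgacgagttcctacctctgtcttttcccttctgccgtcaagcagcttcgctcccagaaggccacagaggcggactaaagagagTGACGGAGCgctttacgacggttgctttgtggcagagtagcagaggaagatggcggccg

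The motifs were searched on both strands as plain letters. Members were counted by gene (42 genes with 45 windows, a match in any window sufficing), whereas the background was counted by window. The gamma interferon activated site, the palindrome TTCNNNGAA, was found in 3 of 42 members (7.14%: Psmb8, Psmd2, and Psmg1), against 8.3% of all 32851 windows. In Psmb8 the match begins 97 bases before the start. The antioxidant response element, TGACNNNGC, which is bound by Nrf1 and Nrf2, was found in 6 members (14.3%: Psmb5, Psmb6, Psmc6, Psmd9, Psmd12, and Psme4), against 12.4% of all windows. The interferon stimulated response element, GAAANNGAAA, was found in 5 members (11.9%: Psmb3, Psmd4, Psmd9, Psme1, and Psmg4), against 3.44% of all windows. Psmb9 and Psmb10 held none of these letters in their windows. The windows of Psmb9 and of Tap1, a peptide transporter gene that is read in the opposite direction, overlap by 275 bases, with starts 226 bases apart. The RefSeq start differs from the outermost GENCODE end by 474 bases for Psmb8, 434 for Psmb9, and 52 for Psmb10, so a start used elsewhere in the gene would have another window.

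Library totals ranged from 16148026 to 28149176 expected counts, and 3 counts, a floor that covers counting error only, correspond to 0.107 to 0.186 CPM (counts scaled to the library size). Markers of the labelled cell type were present, and the summed level of 12 MuSC markers was 3348 to 4406 TPM (a unit scaled for transcript length). The myogenic regulatory factor gene Myog had 818 to 1378 TPM of this sum, whereas the MuSC marker Pax7 had 4.03 to 8.5 TPM. Cxcr4 and Itgb1 on this list encode antigens used in the sort. RvD1 replicate 1 stood apart for the proteasome genes, so many of the medians and counts that it moved are also given without it, a setting added after values were seen. Its fibro-adipogenic markers summed to 1374 TPM, against 646 to 888 TPM in the other libraries. Col3a1 (806 TPM) and Dcn (450 TPM) were the largest parts of this sum, and Pdgfra, Ly6a, and Pi16 were higher in another library. The 10 proliferation markers, a list added after values were seen, summed to 1454 TPM in RvD1 replicate 1, against 1843 to 2091 TPM in the other libraries. The part of these differences in the results was not tested.

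Proteasome genes were among the highly expressed genes of these cells. Of the 50 members, 36 had a mean above 100 TPM over the 6 libraries. The highest was the alpha-ring subunit Psma3 (991 TPM), followed by the catalytic subunit Psmb6 (915 TPM) and the alpha-ring subunit Psma7 (723 TPM). Median levels were 558 TPM for the alpha ring, 499 TPM for the noncatalytic beta subunits, 366 TPM for the 19S ATPases, and 311 TPM for the other 19S subunits. The assembly chaperones, which are not part of the finished particle, had a median of 68.8 TPM. The median over all 14494 genes tested was 14.9 TPM.

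**Figure D1:**
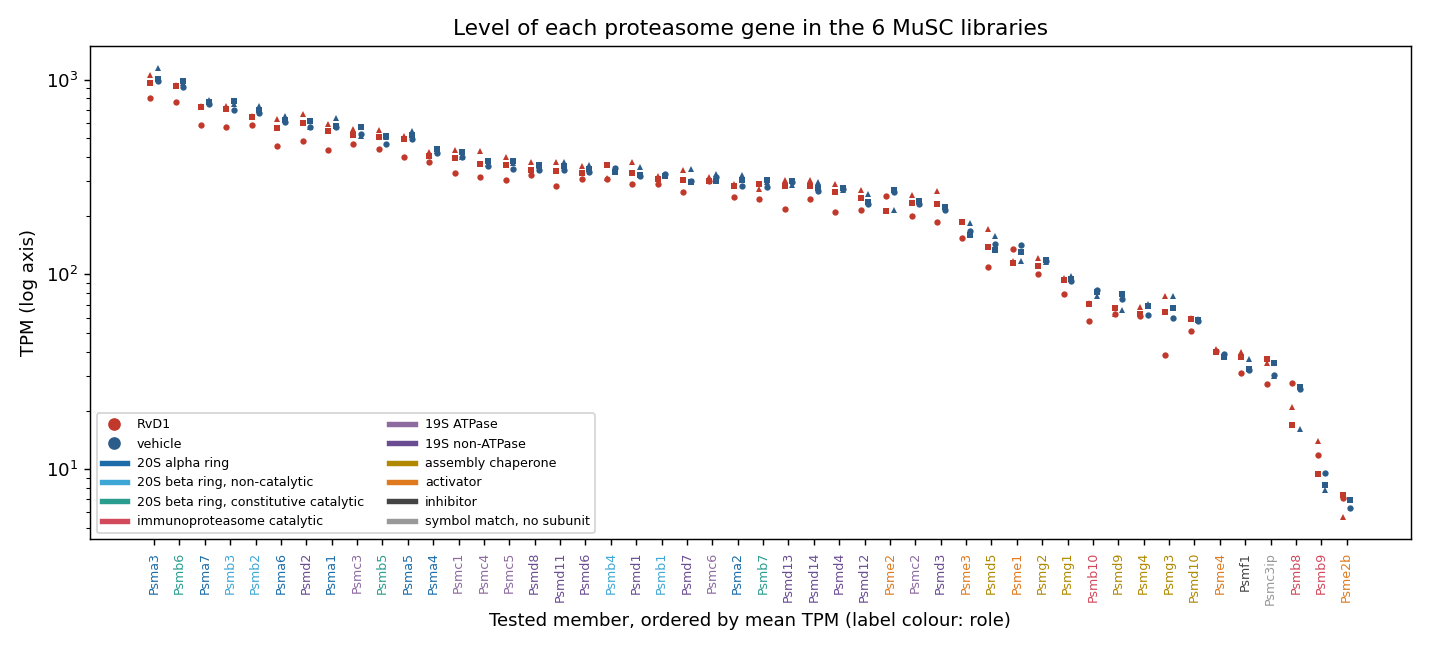
Level of each of the 48 tested members (x axis, ordered by mean, label color giving the role) in TPM (y axis, log scale). Red points are RvD1 libraries and blue points vehicle libraries, with circles, squares, and triangles for replicates 1, 2, and 3; core and 19S genes lie to the left, and Psmb8, Psmb9, and Psme2b lie at the right end, with RvD1 replicate 1 (red circles) below the others for most genes.

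The immunoproteasome subunits were far below their constitutive counterparts. Over the 6 libraries, Psmb10 had a mean of 73.6 TPM, Psmb8 of 22.3 TPM, and Psmb9 of 10.1 TPM, compared with 282 TPM for Psmb7, 498 TPM for Psmb5, and 915 TPM for Psmb6. The order of these 6 genes was the same in every library, and the ranges of neighbors in the order did not overlap. Psmb10 had 57.7 to 83.1 TPM, Psmb8 had 16 to 27.6 TPM, and Psmb9 had 7.80 to 13.9 TPM. The 3 immunoproteasome genes together made up 6.26%, 5.32%, and 5.66% of the summed TPM of the 6 catalytic genes in RvD1 replicates 1, 2, and 3. In vehicle replicates 1, 2, and 3 the share was 6.65%, 6.07%, and 5.43%. The group means were 5.75% ± 0.477 (SD, n = 3) with RvD1 and 6.05% ± 0.613 (SD, n = 3) with vehicle, and the groups overlapped.

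Members restricted to other tissues were near the floor. Psmb11, the catalytic subunit of the thymus, had 5, 2, and 0 counts in the RvD1 libraries and 0, 2, and 4 counts in the vehicle libraries. Psma8, an alpha subunit of the testis, had 5 counts in RvD1 replicate 1 and 0 in every other library. Both had too few counts to be tested, which leaves 48 members in the comparison of RvD1 with vehicle.

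No proteasome gene passed the test between RvD1-treated and vehicle-treated mice. With edgeR's quasi-likelihood test on expected counts and Benjamini-Hochberg adjustment over 14494 genes, 0 of 48 members had an adjusted p under 0.05, and the percentage over all genes was 0.0%. The smallest adjusted p was 0.971. DESeq2 also gave 0 members. At an unadjusted p under 0.05, 2 members were lower with RvD1 (Psmb2 and Psma7, 4.17% of the members, against 1.64% of all genes) and 0 were higher (1.83% of all genes). In bulk RNA, fewer cells of a type and less RNA per cell cannot be told apart.

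The fold changes were small and lay nearly all on one side. The log2 fold change was below 0 in 47 of 48 members (97.9%), against 46.5% of all genes, and Psmb9 was the exception. Its median was −0.15 over the members, a fold of 0.903, and 0.01 over all genes. The median SD between replicates was 0.16 on the log2 CPM scale for the members and 0.21 for all genes. The groups did not overlap for 7 members, each of them lower with RvD1 (14.6%, against 4.84% of all genes): Psma4, Psma6, Psma7, Psmb1, Psmb2, Psmb10, and Psmd13. They did not overlap in the other direction for 0 members (4.77% of all genes). When the counts were scaled by library totals alone, 45 members were below 0, and with log2(TPM + 1) 40 were, a scale on which the median of all genes was 0.08.

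**Figure D2:**
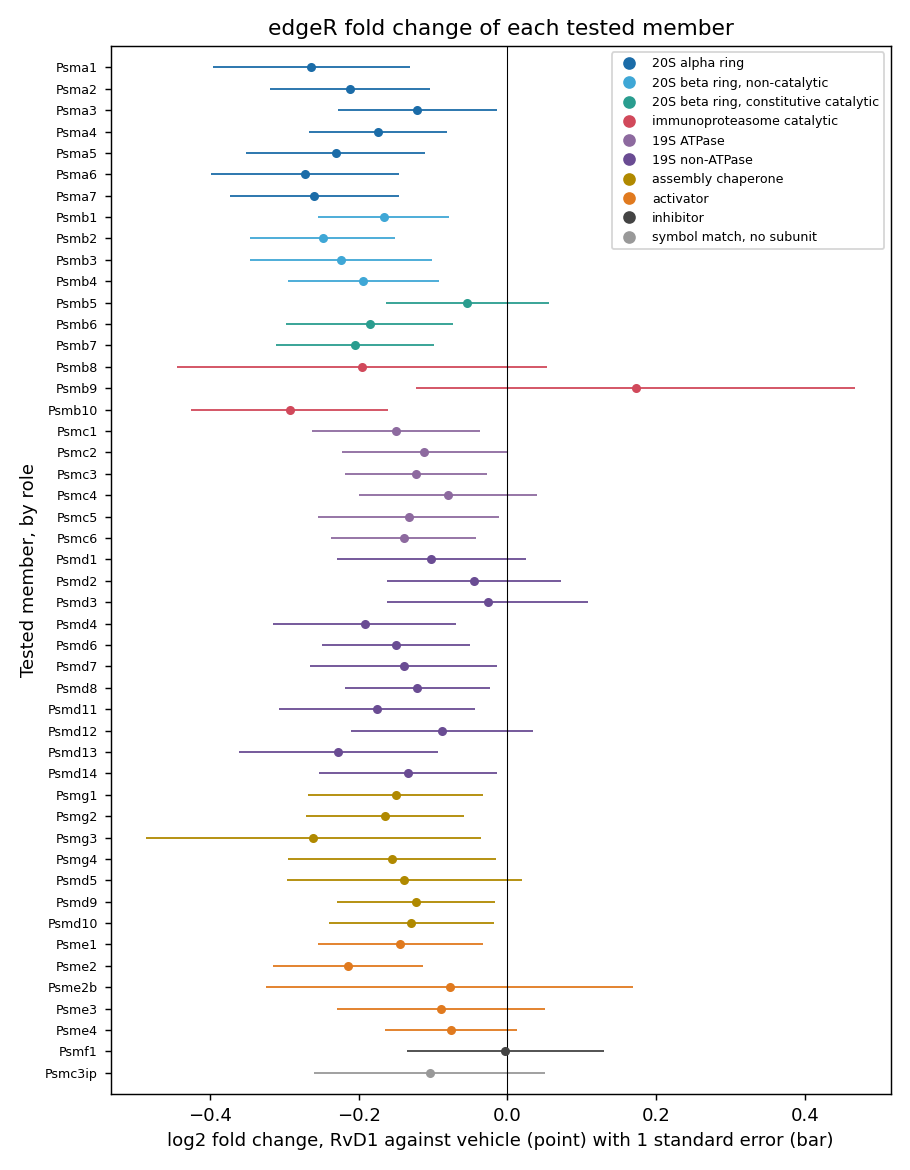
Log2 fold change of RvD1 against vehicle from edgeR (x axis) for the 48 tested members (y axis, colored by role), with bars of 1 standard error. The points lie between −0.29 for Psmb10 and 0.17 for Psmb9, left of the line at 0 for 47 members, with the widest bars for Psmb9, Psmb8, Psme2b, and Psmg3.

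Much of this difference lay in a single library. RvD1 replicate 1 was the lowest of the 6 libraries for 42 of the 45 tested members outside the immunoproteasome (93.3%), including all 14 genes of the 20S rings and all 17 of the 19S cap, whereas it was the lowest for 29.5% of all genes. The median deviation of the members from the vehicle mean was −0.36 on the log2 CPM scale in RvD1 replicate 1, and −0.08 and −0.05 in RvD1 replicates 2 and 3. The vehicle replicates themselves lay at −0.08, 0.04, and 0.04, so that RvD1 replicates 2 and 3 were within their range for the members together. For the 20S rings, RvD1 replicates 2 and 3 lay at −0.098 and −0.113, and the lowest vehicle replicate at −0.105. For the noncatalytic beta subunits they lay at −0.096 and −0.141, both below the lowest vehicle replicate (−0.081). For the 19S cap they lay at −0.058 and 0.027, inside the vehicle range of −0.082 to 0.048. Without RvD1 replicate 1, the median log2 fold change of the members outside the immunoproteasome moved from −0.14 to −0.06. In that fit 37 of 48 members were below 0, and the median of all genes was 0.001. Below 0 were 13 of the 14 genes of the 20S rings and 12 of the 17 of the 19S cap. In this setting 8 of 48 members were lower in both remaining RvD1 libraries than in every vehicle library, against 9.56% of all genes. Of these members, 5 were 20S ring genes and 1 was a 19S gene.

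**Figure D3:**
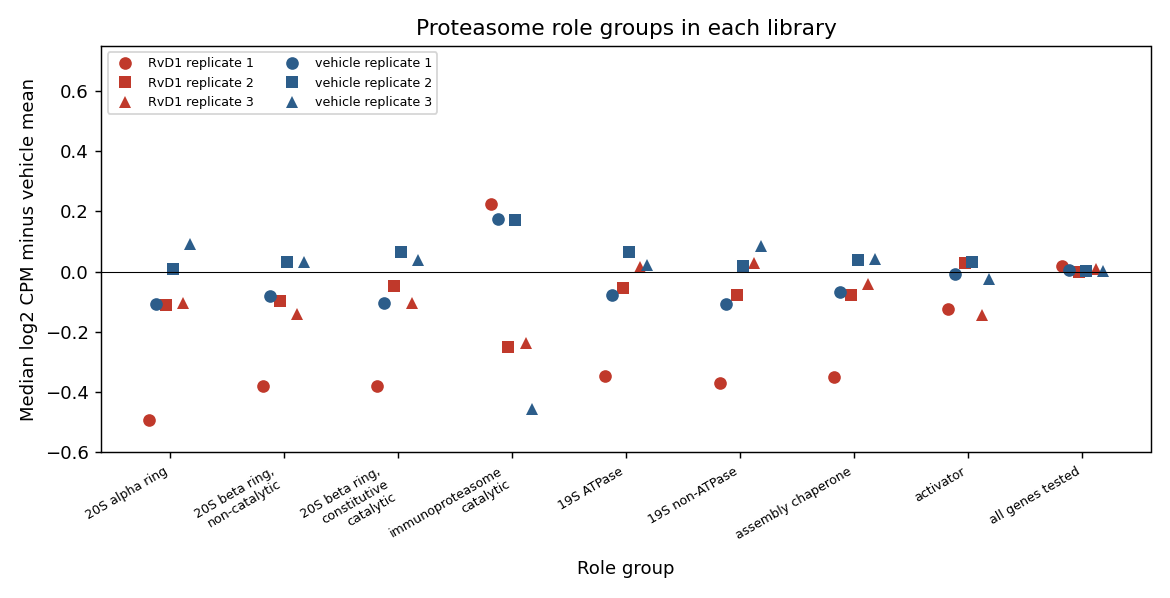
Median deviation from the vehicle mean in log2 CPM (y axis) for each role group and for all genes tested (x axis), one symbol per library, red for RvD1 and blue for vehicle. RvD1 replicate 1 (red circle) lies at −0.35 to −0.49 for the 20S, 19S, and assembly groups but at 0.22 for the immunoproteasome group, where vehicle replicate 3 is lowest at −0.46, and all genes lie near 0.

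The alpha ring, through which substrates enter the core, had the lowest median of the 20S groups, with a log2 fold change of −0.23 over 7 genes (−0.27 for Psma6 to −0.12 for Psma3). Without RvD1 replicate 1 it was −0.13, and the median of all 14 genes of the 20S rings moved from −0.21 to −0.11. Psma7 had 289, 377, and 366 CPM in RvD1 replicates 1, 2, and 3 and 391, 414, and 431 CPM in vehicle replicates 1, 2, and 3. Each RvD1 value was below each vehicle value, and the log2 fold change was −0.26 ± 0.11 (SE, edgeR's quasi-likelihood test, unadjusted p = 0.0490, Benjamini-Hochberg adjusted p = 0.971). It was −0.15 ± 0.08 (SE) without RvD1 replicate 1. Psma6 had 260.4, 339, and 361 CPM with RvD1 and 363, 388, and 409 CPM with vehicle. The groups were again separate, but the gap between RvD1 replicate 3 and vehicle replicate 1 was small beside the spread within the RvD1 group. Psma3, the most abundant member, had 407, 474, and 448 CPM with RvD1 and 442, 460.3, and 543 CPM with vehicle, and its groups overlapped. Psma2, the least abundant of the ring (291 TPM), had a log2 fold change of −0.21 ± 0.11 (SE).

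The noncatalytic beta subunits, which complete the inner rings, had a median log2 fold change of −0.21 over 4 genes (−0.25 for Psmb2 to −0.17 for Psmb1), and of −0.11 without RvD1 replicate 1. Psmb2 had the smallest p of all members in the fit of all 6 libraries. Its levels were 268, 315, and 305 CPM with RvD1 and 326, 355, and 374 CPM with vehicle, with no overlap and a log2 fold change of −0.25 ± 0.10 (SE, edgeR's quasi-likelihood test, unadjusted p = 0.0313, Benjamini-Hochberg adjusted p = 0.971). Without RvD1 replicate 1 it was −0.18 ± 0.08 (SE). Psmb1 had 281, 324, and 321 CPM with RvD1 and 339.8, 349, and 350.1 CPM with vehicle. Here too the groups were separate, and the vehicle libraries were close together. Psmb3, the most abundant of this group (706 TPM), had a log2 fold change of −0.22 ± 0.12 (SE) with overlapping groups.

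In the 19S cap, the 6 ATPases that unfold the substrate had a median log2 fold change of −0.13, from −0.15 for Psmc1 to −0.08 for Psmc4. Their groups overlapped for all 6 genes. Psmc3 was the most abundant (526 TPM) and Psmc2 the least (232 TPM). The 11 non-ATPase subunits of the lid and base, among them those that bind and cleave ubiquitin chains, also had a median of −0.13. Psmd13, a lid subunit, had 143, 203, and 201 CPM with RvD1 and 205, 219.8, and 215 CPM with vehicle. It was the only 19S gene whose groups did not overlap, and RvD1 replicates 2 and 3 lay close below the lowest vehicle value. Psmd2, the most abundant of the lid and base subunits that are not ATPases (586 TPM), and Psmd3, the least abundant (224 TPM), had the values nearest 0 (−0.05 ± 0.12 and −0.03 ± 0.14, SE). Without RvD1 replicate 1, the median of the 17 genes of the cap was −0.03, with 12 below and 5 above 0, and the value for Psmd13 was −0.08 ± 0.08 (SE).

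The 7 assembly chaperones had a median log2 fold change of −0.15, from −0.26 for Psmg3 to −0.12 for Psmd9. Psmg3, which helps to build the alpha ring, had 17.9, 29.9, and 34.1 CPM with RvD1 and 27.7, 33.2, and 37.2 CPM with vehicle. Only RvD1 replicate 1 was outside the vehicle range, and without it the value for Psmg3 was −0.03 and the median of the chaperones −0.05. Psmd5, a chaperone of the 19S base, was the most abundant (142 TPM), and Psmd10 was the least (57.5 TPM). Psmf1, which encodes the proteasome inhibitor PI31, had a log2 fold change of −0.003 ± 0.13 (SE), and that of Psmc3ip was −0.10 ± 0.16 (SE). Both were above 0 without RvD1 replicate 1 (0.11 and 0.02).

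The activators, which open the core in place of the 19S cap, behaved less uniformly across libraries. Psme1 and Psme2 form an interferon-inducible ring. Psme2 had 93.7, 86.0, and 84.8 CPM with RvD1 and 105.6, 109, and 91.9 CPM with vehicle. RvD1 replicate 1 was above vehicle replicate 3, and the log2 fold change was −0.21 ± 0.10 (SE). Without RvD1 replicate 1 it was −0.26 ± 0.10 (SE). That fit gave Psme2 the smallest p of the members (edgeR's quasi-likelihood test, unadjusted p = 0.0244, Benjamini-Hochberg adjusted p = 0.9675). Psme1 had 56.8, 52.7, and 54.3 CPM with RvD1 and 67.1, 60.6, and 53.3 CPM with vehicle. Its log2 fold change was −0.14 ± 0.11 (SE), and −0.17 ± 0.11 (SE) without RvD1 replicate 1. For both genes vehicle replicate 3 was the lowest vehicle library, and RvD1 replicate 1 was the highest RvD1 library. Psme3, a nuclear activator, had 205, 293, and 283 CPM with RvD1 and 261, 268, and 302 CPM with vehicle. Psme4, which is linked to histone degradation, had 127, 147, and 136 CPM with RvD1 and 143, 147, and 141 CPM with vehicle. These last genes followed the core, with RvD1 replicate 1 lowest. The median of the 5 activators was −0.09 with that library and −0.10 without it. Psme2b, a near-identical copy of Psme2 whose reads cannot be assigned with certainty, had 2.59 to 3.52 CPM over all libraries.

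The constitutive catalytic subunits showed the pattern of the rings. Psmb5, which carries the chymotrypsin-like activity, had 215, 260.0, and 270.3 CPM with RvD1 and 238, 273, and 263 CPM with vehicle. Psmb6, with the caspase-like activity, had 323, 414, and 401 CPM with RvD1 and 401, 449.9, and 443 CPM with vehicle. Psmb7, with the trypsin-like activity, had 157, 198, and 178 CPM with RvD1 and 190.3, 214, and 210.2 CPM with vehicle. For each of the 3 genes RvD1 replicate 1 was the lowest library and the groups overlapped. Their log2 fold changes were −0.05 ± 0.11, −0.19 ± 0.11, and −0.21 ± 0.11 (SE), and edgeR's quasi-likelihood test gave a Benjamini-Hochberg adjusted p = 0.971 for each. They were 0.04, −0.08, and −0.12 without RvD1 replicate 1.

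The immunoproteasome subunits did not share one pattern. Psmb8 had 15.9, 10.5, and 10.04 CPM in RvD1 replicates 1, 2, and 3 and 15.4, 16.6, and 9.87 CPM in vehicle replicates 1, 2, and 3. RvD1 replicate 1 was thus at the level of the higher vehicle libraries, and the lowest value was that of vehicle replicate 3. Psmb9 had 6.68, 4.13, and 6.50 CPM with RvD1 and 6.29, 5.60, and 3.43 CPM with vehicle, also with its lowest value in vehicle replicate 3. Psmb10 had 21.4, 27.4, and 25.8 CPM with RvD1 and 28.7, 33.2, and 29.5 CPM with vehicle. Unlike the other immunoproteasome genes, Psmb10 was lowest in RvD1 replicate 1, and its groups did not overlap.

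The log2 fold change was −0.20 ± 0.25 for Psmb8, 0.17 ± 0.30 for Psmb9, and −0.29 ± 0.13 for Psmb10 (SE, edgeR's quasi-likelihood test, unadjusted p = 0.453, 0.574, and 0.0543, Benjamini-Hochberg adjusted p = 0.971 for each). The difference for Psmb9 changed sign without vehicle replicate 3, to −0.05. Without RvD1 replicate 1, the value for Psmb8 was −0.43, and that for Psmb10 was −0.19. The SD between replicates on the log2 scale was 0.38 for Psmb8 and 0.43 for Psmb9, which had means of 258 and 107 counts, for which counting error alone gives 0.09 and 0.14. For Psmb10 the SD was 0.15, close to the 0.13 to 0.15 of Psmb5, Psmb6, and Psmb7. Psmb9 overlaps Tap1 on the other strand, and Psmb8 and Psmb10 overlap the predicted genes Gm20496 and Gm16156. The counterpart Psmb7 overlaps Nek6 and Gm13586 on the other strand. The libraries did not mark the strand, so any reads in the shared parts cannot be told apart. Counts of Psmb10 were whole in every library, whereas those of Psmb7, Psmb8, and Psmb9 were not.

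**Figure D4:**
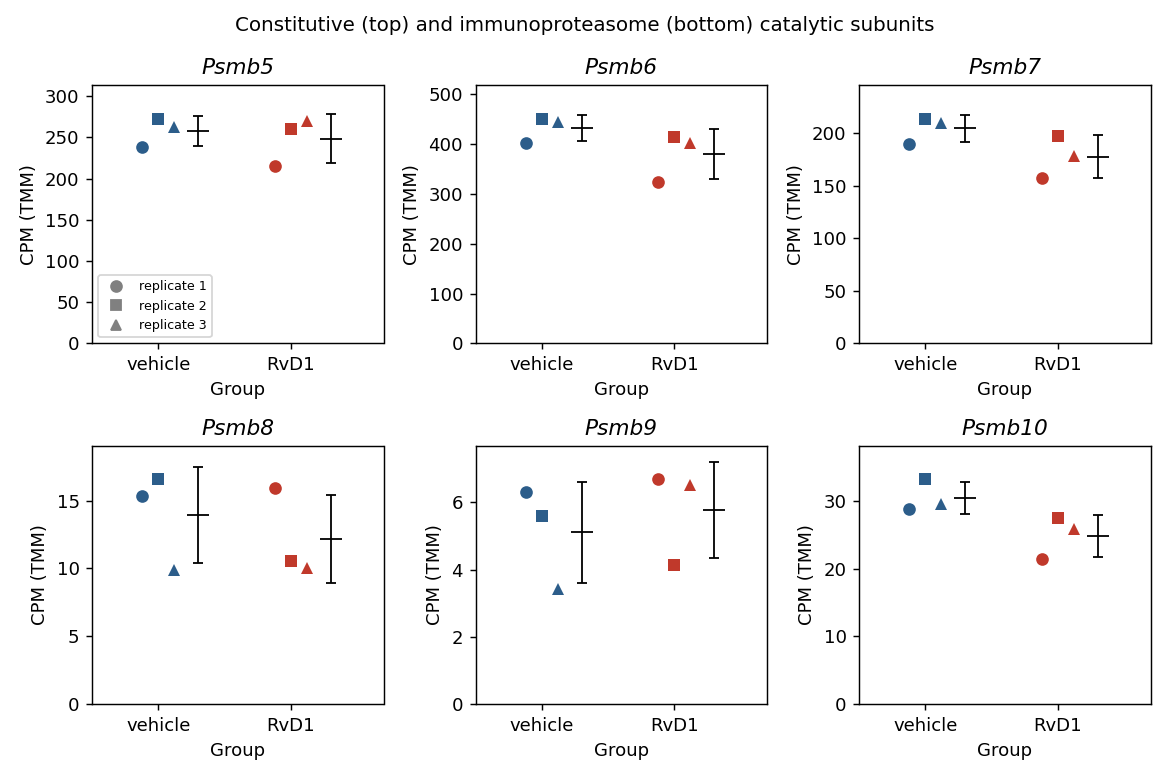
CPM with TMM scaling (y axis, starting at 0) of the constitutive catalytic subunits (top) and of the immunoproteasome subunits that replace them (bottom) in vehicle and RvD1 libraries (x axis). Points are libraries, horizontal bars the mean, and error bars 1 SD (n = 3); the groups are separate for Psmb10, and for Psmb8 and Psmb9 vehicle replicate 3 (triangle) is the lowest point.

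The balance of transcripts was examined by the ratio of each immunoproteasome gene to the gene whose product it replaces, taken from TPM within a library. The RNA data hold no measure of protein or of particle composition, so these ratios cannot show an exchange of catalytic sites. Psmb8 was at 6.25%, 3.34%, and 3.77% of Psmb5 in RvD1 replicates 1, 2, and 3 and at 5.52%, 5.12%, and 3.16% in vehicle replicates 1, 2, and 3. Psmb9 was at 1.54%, 1.02%, and 1.48% of Psmb6 with RvD1 and at 1.05%, 0.848%, and 0.814% with vehicle. Psmb10 was at 23.6%, 24.3%, and 26.1% of Psmb7 with RvD1 and at 29.4%, 26.8%, and 26.1% with vehicle. The Psmb9 ratio in RvD1 replicate 2 lay inside the vehicle range and the other 2 RvD1 values lay above it. The Psmb8 values of the groups were interleaved, and the lowest vehicle value and the highest RvD1 value of Psmb10 met.

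The mean log2 ratio differed between RvD1 and vehicle by −0.06 for Psmb8 to Psmb5, by 0.56 for Psmb9 to Psmb6, and by −0.15 for Psmb10 to Psmb7. In an exact permutation test over the 20 assignments of the libraries (two-sided), p was 1.0, 0.2, and 0.2, and after adjustment over the 3 pairs it was 1.0, 0.3, and 0.3. The smallest p that 3 libraries against 3 allow is 0.1. The SD of the log2 ratio within groups was 0.48 and 0.44 for the Psmb8 pair, 0.33 and 0.19 for the Psmb9 pair, and 0.07 and 0.09 for the Psmb10 pair (RvD1 and vehicle, n = 3). From expected counts without length scaling, the Psmb9 difference was 0.38.

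**Figure D5:**
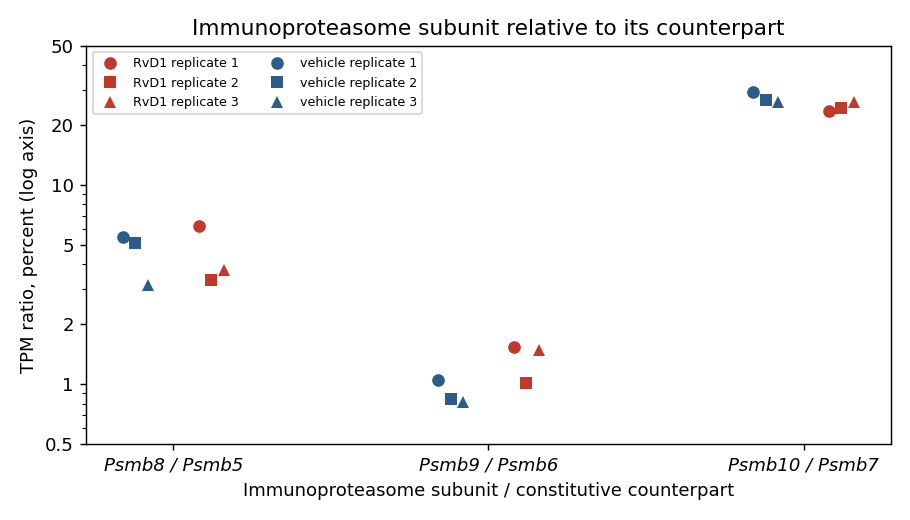
TPM of each immunoproteasome subunit as a percentage of its constitutive counterpart (y axis, log scale) for the 3 pairs (x axis), with 1 point per library, red for RvD1 and blue for vehicle. Psmb10 lies at 23.6% to 29.4% of Psmb7, Psmb8 at 3.16% to 6.25% of Psmb5, and Psmb9 at 0.814% to 1.54% of Psmb6.

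Genes that surround the immunoproteasome in its pathway were read alongside. Of 12 neighbors and regulators, which include the MHC genes Tap1, Tap2, and Tapbp and the interferon response genes Irf1 and Nlrc5, 9 were higher and 3 lower with RvD1. The median log2 fold change was 0.04, and 0 had an adjusted p under 0.05 in edgeR or an unadjusted p under 0.05. These directions rested on RvD1 replicate 1: without it, 3 were higher and 9 lower, with a median of −0.10. Like Psmb8 and Psmb9, 7 of the 12 had their lowest CPM in vehicle replicate 3, the lowest library for 19.2% of all genes. Tap1 had 24.6, 15.7, and 19.8 CPM with RvD1 and 23.8, 26.6, and 12.9 CPM with vehicle. Its lowest library in each group was RvD1 replicate 2 and vehicle replicate 3, as it was for Psmb9.

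Because leukocytes are rich in immunoproteasome subunits, the leukocyte markers were set beside them. Of 22 markers, 19 could be tested, and all 19 had a log2 fold change below 0 (46.5% of all genes), with a median of −0.53. In edgeR, 0 had an adjusted p under 0.05, and 6 had an unadjusted p under 0.05 (against 1.64% of all genes in that direction). The median was −0.64, and 18 were below 0, without RvD1 replicate 1. No marker was at 0 in every library. The summed level was 82.6, 56.1, and 59.3 TPM in RvD1 replicates 1, 2, and 3 and 111, 75.7, and 126 TPM in vehicle replicates 1, 2, and 3. Lyz2 was the largest part of this sum in every library, with 17.6 to 61.1 TPM. The sum was highest in vehicle replicate 3, the library with the lowest Psmb8 and Psmb9. Psmb10 and the sum were both lower with RvD1 on average. The part of the markers in the values of Psmb8, Psmb9, and Psmb10 was not tested. Of 8 endothelial markers, 6 were lower with RvD1, with a median log2 fold change of −0.95, and 0 had an unadjusted p under 0.05. All 8 were lower without RvD1 replicate 1, with a median of −0.86. Their summed level was 23.2, 16.6, and 17.4 TPM with RvD1 and 20.3, 10.6, and 30.1 TPM with vehicle, and the groups overlapped. Their part in the results was not tested either.

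Among 27 partners of the proteasome in the ubiquitin pathway, 20 were lower and 7 higher with RvD1, with a median log2 fold change of −0.07 and 0 with an adjusted p under 0.05 in edgeR. An unadjusted p under 0.05 was found for 3 of them, 2 lower (1.64% of all genes) and 1 higher (1.83% of all genes). When RvD1 replicate 1 was left out, 16 were lower and 11 higher, with a median of −0.05. Pomp, the maturation factor of the 20S core, had 116, 131, and 122 CPM with RvD1 and 136, 148, and 141 CPM with vehicle, without overlap (log2 fold change −0.21 ± 0.09, SE, edgeR's quasi-likelihood test, unadjusted p = 0.0469, Benjamini-Hochberg adjusted p = 0.971). Rps27a, which encodes ubiquitin fused to a ribosomal protein, had a log2 fold change of −0.28 ± 0.12 (SE). Ddi2, the protease that activates the transcription factor Nrf1, had 47.9, 51.2, and 50.8 CPM with RvD1 and 42.9, 41.3, and 44.0 CPM with vehicle, with all RvD1 values above all vehicle values (log2 fold change 0.22 ± 0.09, SE, unadjusted p = 0.0422 and adjusted p = 0.971 in edgeR). Nfe2l1, which encodes Nrf1, the main activator of proteasome genes, had a log2 fold change of 0.05 ± 0.11 (SE). RvD1 replicate 1 was the lowest library for 15 of the 27 partners, Pomp and Rps27a among them, and for 29.5% of all genes. Without it, the log2 fold change was −0.16 ± 0.08 for Pomp, −0.23 ± 0.11 for Rps27a, and 0.25 ± 0.10 for Ddi2 (SE).

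The limma-voom procedure with surrogate variables, which removes patterns that treatment does not explain, gave other counts. With 2 surrogate variables removed, 7 of the 50 members (14%) had an adjusted p under 0.05, against 6.51% of all 26518 genes in that fit. They were Psma1, Psma5, Psma6, Psma7, Psmb1, Psmb2, and Psmb4, all subunits of the 20S rings, with log2 fold changes from −0.21 for Psma6 to −0.12 for Psmb1. With 1 or no surrogate variable removed, the count was 0. No immunoproteasome subunit was called in any of these fits. The surrogate variables were estimated from the same 6 libraries, and the test did not count them as fitted terms. When any was removed, the p values therefore tend to be too small. The study also removed surrogate variables and reported no gene with an adjusted p under 0.05.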

How the data were processed

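RNA-Seq was performed on sorted MuSCs of 3 RvD1-treated and 3 vehicle-treated mice as 76-bp single-ended reads from SMART-Seq and Nextera XT libraries, which do not mark the strand. The authors aligned reads to mm10 with STAR 2.5.0a and quantified genes with RSEM, whose version is not given in the sources used here and which divides shared reads between genes (20 of 50 members had counts that are not whole within 0.05). The deposited expected counts are not scaled for depth. The deposited TPM and FPKM values are corrected for both depth and transcript length. Each file held 1 stray header line, which was removed.

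Expected counts were rounded and tested with edgeR 4.0.16 (R 4.3.3; filterByExpr, TMM, quasi-likelihood test, Benjamini-Hochberg adjustment over all genes tested, threshold 0.05). CPM are TMM-scaled. Ratios of catalytic subunits were compared by exact permutation. Alternatives used limma 3.58.1, sva 3.50.0, and DESeq2 1.42.0, and scripts were tested on simulated data. Positions follow GENCODE M21 on GRCm38. Members, role groups, gene lists, and the genes named (catalytic, activator, and tissue-restricted subunits; the extremes of level and fold change in each role; the smallest p values in each direction) were chosen with earlier results of these data known. One listed partner, Paaf1, was not analysed here, and 1 gene of the list of neighbors and regulators is not reported here. Samples were grouped by their labels, and p values measure the spread between mice. The labels give 1 ng of RNA as input where the study's methods give 10 ng.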

Additional observations from a re-analysis of the deposited data

How the results depend on the processing

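Genes with an adjusted p under 0.05, 0 in edgeR, numbered 12 without a filter on low counts, 1727 in limma-voom with 2 surrogate variables removed, and 0 to 1 with 1 library left out. The number of members was 7 with 2 surrogate variables removed and 0 in all 19 other settings. P values after removal of surrogate variables tend to be too small, as given above. Members lower at an unadjusted p under 0.05, 2 in edgeR, numbered from 0 (without vehicle replicate 2) to 24 of 50 (2 surrogate variables removed, a setting in which 10.7% of all genes were lower at this p), with 15 of 50 when 1 was removed (5.32% of all genes). With 1 library left out, the median log2 fold change ranged from −0.21 to −0.06 for the members outside the immunoproteasome and from −0.28 to −0.11 for the 20S rings, both nearest 0 without RvD1 replicate 1. For the immunoproteasome members it ranged from −0.32 to −0.05. For Psmb9 it ranged from −0.0496 (without vehicle replicate 3) to 0.37 and for the ratio of Psmb8 to Psmb5 from −0.33 to 0.12, with the sign changed in 4 settings (0.12, 0.03, 0.09, and 0.04, without RvD1 replicate 2 or 3 or vehicle replicate 1 or 2). With all 6 libraries, the Psmb9 value was 0.17 in edgeR, 0.41 with log2(TPM + 1), and 0.44 with log2(TPM + 0.1). In limma these TPM fits gave an unadjusted p = 0.0522 and 0.0477 and an adjusted p = 0.8933 and 0.8935. The cause was not tested.

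Libraries with the same replicate number correlated at 0.31, −0.0007, and 0.13 after removal of the group means. Those with different numbers correlated at −0.25 to 0.17, so only the 0.31 lay outside that range. These values do not settle whether the numbers pair mice, and the main test did not use the numbers. With a replicate block, 0 genes and 0 members passed the threshold, 12 of 48 members were lower at an unadjusted p under 0.05 (3.02% of all genes in that fit), and the pair differences were −0.06, 0.56, and −0.15. Groups of 3 and depth limit the comparison, above all for Psmb9 with a mean of 107 counts.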
